A study of Mus musculus with 16 samples.

Results

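The genes described here are 9 genes known in mouse as imprinted, that is, expressed mainly from the copy inherited from 1 parent: Igf2, H19, Meg3, Dlk1, Peg3, Peg10, Mest, Kcnq1ot1 and Grb10. They were chosen as a known family and not by any measured value, though with earlier results of these data known. They are 9 of the 25755 genes with a curated RefSeq transcript on the 21 chromosomes of the peak lists. For each gene, the peaks of 6 lists were taken that overlapped the 2500 bp on either side of an annotated transcription start site, or the gene body, in the GRCm38 genome. The rule gathered 150 distinct peaks over the 6 lists.

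The lists come from chromatin immunoprecipitation and sequencing (ChIP-seq) of R1 mouse embryonic stem cells (ESCs) that carry MycT58A-ER, a stabilized Myc protein that works only when 4-hydroxytamoxifen (OHT) is present. LIF-ESCs were kept with 100 units/ml of the cytokine LIF, and Myc-ESCs were kept without LIF with 50 nM OHT. Both cultures grew without feeder cells, on gelatin, in serum and 100 μg/ml vitamin C, so transgene and vitamin were shared by all groups. H3K4me3, H3K27me3 and the Polycomb protein Suz12 were each immunoprecipitated in 2 libraries per culture, with 4 input libraries besides, and a single peak list stands for each antibody and culture. The source does not say which clone of the transgenic line gave the chromatin. Because lists per library and read counts were not used here, depth is unknown, no value below has a replicate error, and none was tested. A difference between cultures is therefore a difference between a pair of lists.

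Imprinting rests on DNA methylation laid down differently in egg and sperm at imprinting control regions and kept on that copy afterwards. The unmethylated copy of such a region usually carries H3K4me3, the mark of active or poised promoters, whereas the methylated copy carries repressive chromatin. H3K27me3 is the mark set by Polycomb repressive complex PRC2, of which Suz12 is a core subunit. The peak lists do not separate the parental copies, so a peak may stem from either copy or from both. In ESCs these genes are known for their variable imprints between lines and culture conditions.

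The 9 genes include 3 long non-coding RNAs and 6 protein-coding genes, and they form 7 loci, since Igf2 with H19 and Dlk1 with Meg3 are neighbours. Igf2 lies on the minus strand at chr7:142650768-142666816 with 4 annotated start sites, numbered here from the outermost, and H19 at chr7:142575530-142578146 on the same strand with 1. Dlk1 is at chr12:109452823-109463336 and Meg3 at chr12:109540996-109571729, both on the plus strand with 2 start sites each. Peg3 (chr7:6705960-6730419, minus strand), Peg10 (chr6:4747306-4760517, plus strand) and Kcnq1ot1 (chr7:143213111-143296547, minus strand) have 1 start site each. Mest (chr6:30733506-30748466, plus strand) has 3, of which the inner pair are nearly the same base, and Grb10 (chr11:11930499-12037420, minus strand) has 2. Of all genes, 84.8% had 1 start site, so genes with several had more window in which a peak could fall. Several windows are shared with a neighbour. Sgce starts 102 bp from Peg10 and Usp29 164 bp from Peg3, both pointing the other way, Igf2os starts 876 bp from an Igf2 start, and Kcnq1ot1 lies inside Kcnq1, so that peaks there cannot be assigned to 1 gene of the pair.

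Sequences are shown first for the promoters on which the marks divided, from 250 bases before to 50 bases after the start, 5′ to 3′, with each CG dinucleotide, the site of DNA methylation, in capitals. They were taken from RefSeq (GRCm38.p6), which holds the C57BL/6J reference and not the R1 genome. The table used matched 7 of the 9 genes with 14 promoters, without H19, Peg10 and the inner Dlk1 start. The first 3 lay wholly within H3K4me3 peaks in both cultures and outside H3K27me3 and Suz12 peaks. The first Meg3 promoter, the outer Mest promoter and the other inner Mest promoter did so too and are not printed.
Mest, inner start, chr6:30737800-30738099, plus strand: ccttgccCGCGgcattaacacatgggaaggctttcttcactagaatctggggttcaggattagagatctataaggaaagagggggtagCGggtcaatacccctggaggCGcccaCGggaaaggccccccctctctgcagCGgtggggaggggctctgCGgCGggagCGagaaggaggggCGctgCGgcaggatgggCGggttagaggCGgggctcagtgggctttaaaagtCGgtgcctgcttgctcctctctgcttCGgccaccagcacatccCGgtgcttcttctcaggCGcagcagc
Peg3, chr7:6730370-6730669, minus strand: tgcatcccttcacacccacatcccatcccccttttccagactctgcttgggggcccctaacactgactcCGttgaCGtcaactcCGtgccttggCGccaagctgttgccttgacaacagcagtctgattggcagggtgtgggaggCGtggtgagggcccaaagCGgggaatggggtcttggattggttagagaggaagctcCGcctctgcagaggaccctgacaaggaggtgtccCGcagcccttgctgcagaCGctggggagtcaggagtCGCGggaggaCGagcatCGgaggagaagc
Kcnq1ot1, chr7:143296498-143296797, minus strand: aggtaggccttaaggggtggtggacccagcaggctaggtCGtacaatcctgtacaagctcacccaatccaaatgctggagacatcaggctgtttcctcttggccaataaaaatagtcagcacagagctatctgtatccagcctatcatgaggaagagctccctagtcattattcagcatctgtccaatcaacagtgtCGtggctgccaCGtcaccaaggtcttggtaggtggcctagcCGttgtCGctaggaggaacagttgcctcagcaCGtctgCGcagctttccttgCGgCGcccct
The next 4, at Igf2 and Grb10, were those of the 14 tabled promoters with any base in a Suz12 peak. The Peg10 start, not in the table, was also inside a Suz12 peak in Myc-ESCs.
Igf2, start 2, chr7:142661222-142661521, minus strand: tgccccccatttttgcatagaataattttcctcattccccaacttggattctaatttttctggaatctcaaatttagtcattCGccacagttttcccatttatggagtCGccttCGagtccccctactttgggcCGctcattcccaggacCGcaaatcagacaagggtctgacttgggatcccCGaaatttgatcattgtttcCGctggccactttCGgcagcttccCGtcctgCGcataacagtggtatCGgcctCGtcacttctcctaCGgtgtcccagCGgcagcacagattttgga
Igf2, start 3, chr7:142658755-142659054, minus strand: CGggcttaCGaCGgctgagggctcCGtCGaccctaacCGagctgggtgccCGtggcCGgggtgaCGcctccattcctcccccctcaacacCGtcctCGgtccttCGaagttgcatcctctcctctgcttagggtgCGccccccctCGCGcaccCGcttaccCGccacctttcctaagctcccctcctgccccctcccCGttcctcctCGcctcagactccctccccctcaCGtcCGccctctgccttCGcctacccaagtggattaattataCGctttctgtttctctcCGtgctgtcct
Grb10, outer start, chr11:12037371-12037670, minus strand: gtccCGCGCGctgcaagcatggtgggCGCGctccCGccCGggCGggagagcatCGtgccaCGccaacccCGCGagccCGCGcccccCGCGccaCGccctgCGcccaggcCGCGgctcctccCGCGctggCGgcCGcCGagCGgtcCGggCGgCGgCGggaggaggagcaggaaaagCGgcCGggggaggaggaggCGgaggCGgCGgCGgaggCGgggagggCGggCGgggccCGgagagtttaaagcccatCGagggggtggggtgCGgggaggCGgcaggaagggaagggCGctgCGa
Grb10, inner start, chr11:12027922-12028221, minus strand: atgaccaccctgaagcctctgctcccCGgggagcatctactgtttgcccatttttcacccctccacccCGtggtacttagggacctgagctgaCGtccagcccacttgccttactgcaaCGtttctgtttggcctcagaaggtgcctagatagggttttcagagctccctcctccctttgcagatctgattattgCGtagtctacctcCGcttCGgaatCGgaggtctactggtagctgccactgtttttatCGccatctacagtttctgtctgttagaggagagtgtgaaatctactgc
The outer Grb10 promoter held 45 CG dinucleotides in 300 bases at 80.0% G and C, more G and C than 99.0% of the 32851 promoters in the table. The Igf2 promoter at start 3 held 24 and that at start 2 held 14, the inner Mest promoter 17, Peg3 13, and Kcnq1ot1 and the inner Grb10 promoter 9 each.

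Across the family, H3K4me3 was the most widespread mark in Myc-ESCs and level with Suz12 in LIF-ESCs, and the genes that lacked it in LIF-ESCs had it in Myc-ESCs. In LIF-ESCs 6 of the 9 genes had an H3K4me3 peak at a start site, beside 62.7% of all genes, and in Myc-ESCs 9 of 9 had one, beside 63.9% of all genes. The 3 genes with H3K4me3 in Myc-ESCs only were Igf2, H19 and Grb10. They were all of the members without it in LIF-ESCs, whereas 6.35% of the 9595 genes without it in LIF-ESCs had it in Myc-ESCs. None of the 6 marked in LIF-ESCs lacked H3K4me3 in Myc-ESCs, beside 1.91% of all marked genes. The score of a peak is the peak caller's scaled significance, which grows with depth and is given here to place a peak within its own list. The Igf2 peak had a score of 96.1, so at a score limit of 100 the genes with H3K4me3 in Myc-ESCs only were 2, H19 and Grb10.

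Suz12 was at most of the 9 genes. In LIF-ESCs 6 of 9 had a Suz12 peak at a start site, beside 12.2% of all genes: Igf2, H19, Dlk1, Peg10, Mest and Grb10. In Myc-ESCs 5 of 9 had one, beside 14.7%, since H19 had none. That was 1 loss among 6 genes, where 10.6% of all Suz12-marked genes lost the mark, and none of the 3 members without Suz12 gained it, where 4.36% of such genes did. The H19 loss concerned a pair of peaks with scores of 56.1 and 60.6, near the lowest score of 50 in the lists, and no such loss was counted at a score limit of 100. Meg3, Peg3 and Kcnq1ot1 had no Suz12 peak at a start site or over the body in either culture.

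H3K27me3 was mainly at Igf2 and Grb10. These were the members marked in LIF-ESCs, 2 of 9 beside 3.84% of all genes. In Myc-ESCs 4 of 9 were marked beside 10.8% of all genes, as Peg10 and Mest each had 1 short peak. They were 2 of the 7 members without the mark in LIF-ESCs, where 8.00% of such genes had it in Myc-ESCs, and neither Igf2 nor Grb10 lost it, where 19.2% of marked genes did. The Myc-ESC list of H3K27me3 holds 16717 peaks and the LIF-ESC list 3120. With the longer list limited to its 3120 highest-scoring peaks, or at a score limit of 100, only Igf2 and Grb10 were marked in either culture.

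**Figure D1:**
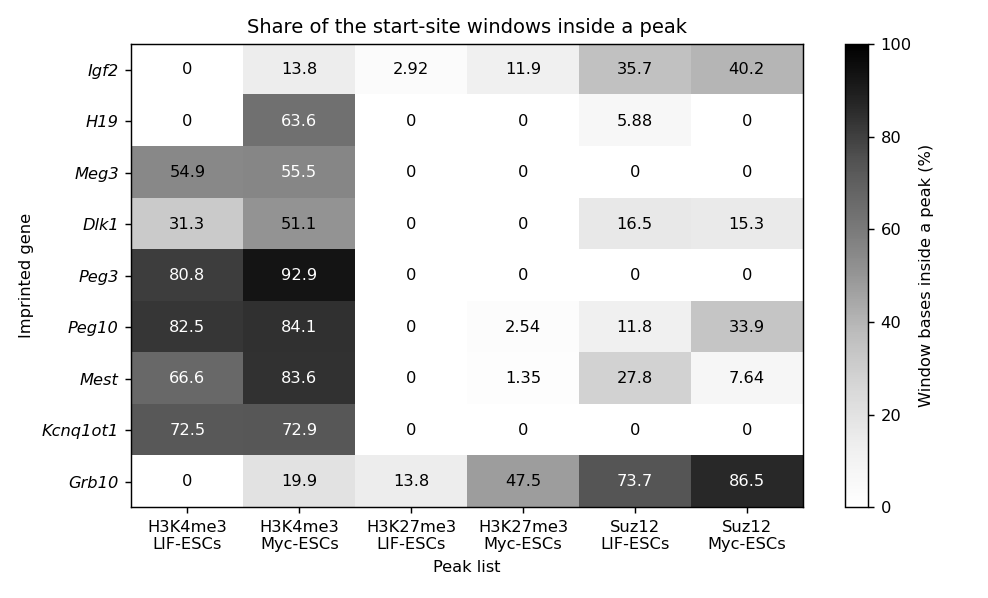
Percent of the start-site windows of each imprinted gene (rows; 2500 bp on either side of every annotated start, joined where they overlap) that lay inside a peak of each list (columns). H3K4me3 covered from 54.9% (Meg3 in LIF-ESCs) to 92.9% (Peg3 in Myc-ESCs) at Meg3, Peg3, Peg10, Mest and Kcnq1ot1, and Suz12 was widest at Grb10, at 73.7% and 86.5%.

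Over gene bodies the counts were close to those at start sites. H3K4me3 lay over 6 of 9 bodies in LIF-ESCs (64.9% of all genes) and 9 of 9 in Myc-ESCs (65.9%). H3K27me3 lay over 2 bodies in LIF-ESCs (3.81% of all genes) and 4 in Myc-ESCs (10.8%), and these 4 were Igf2, Mest, Grb10 and Kcnq1ot1, the last with peaks far from its start. Suz12 lay over 5 bodies in each culture (12.1% of all genes with LIF and 14.8% with Myc). Bodies ranged from 2617 bp at H19 to 106922 bp at Grb10, and a longer body can hold more peaks.

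**Figure D2:**
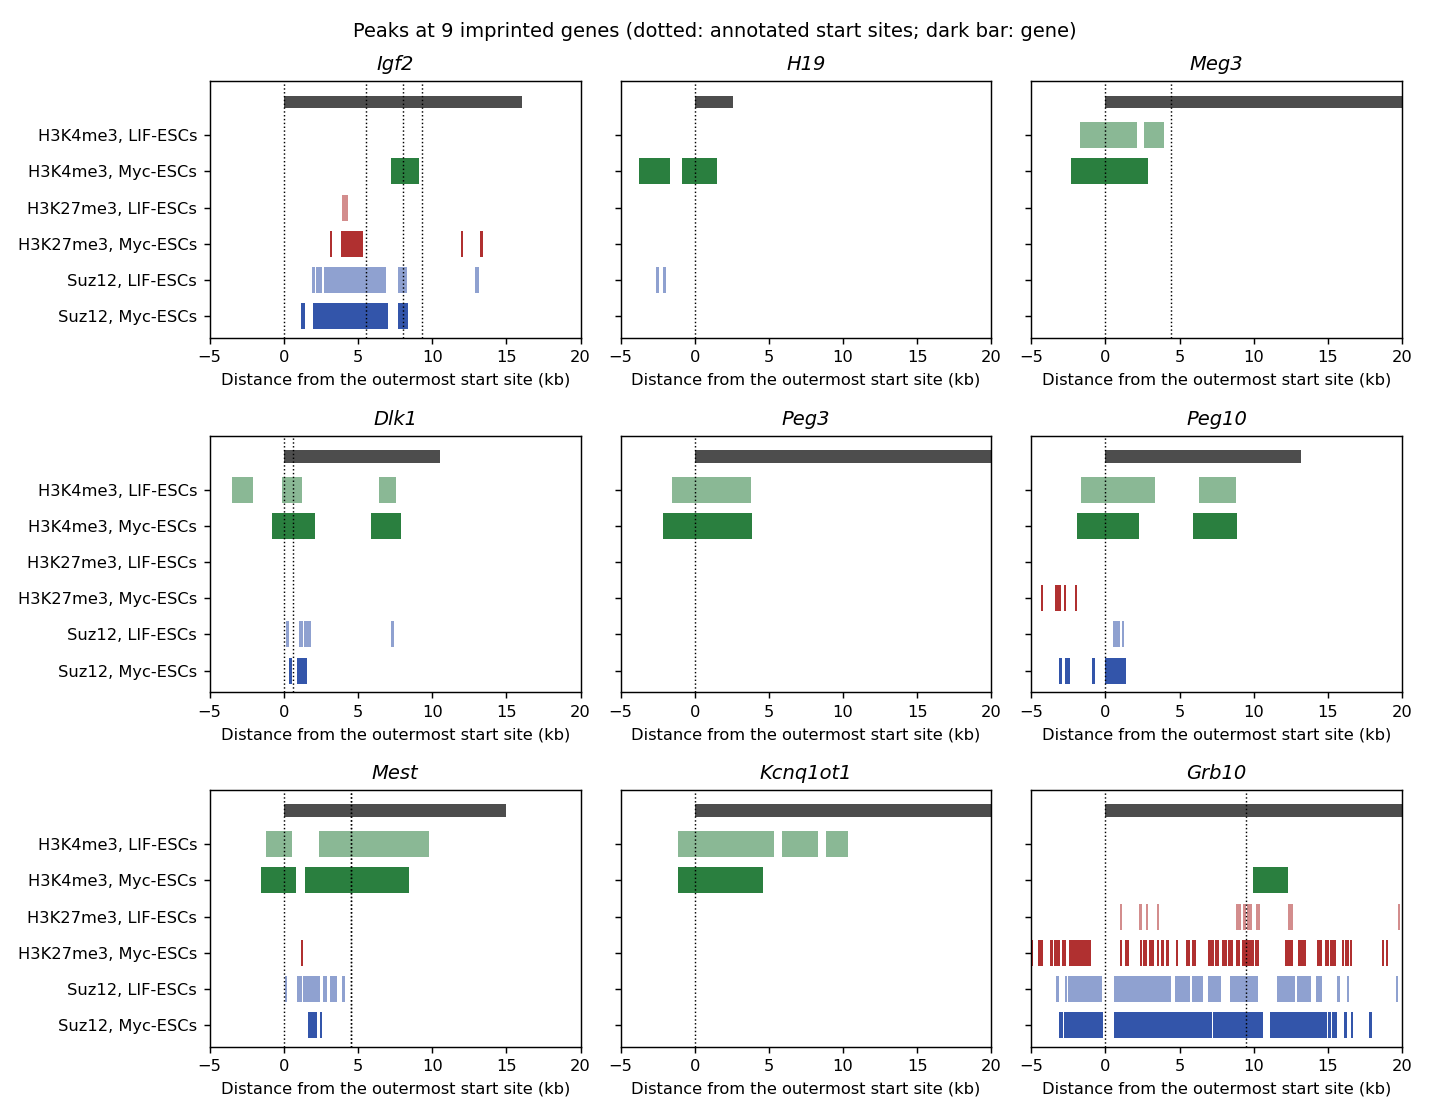
Peaks of the 6 lists (rows; pale for LIF-ESCs, dark for Myc-ESCs) at the 9 genes, by distance in kb from the outermost start site, with the gene to the right, dotted lines at annotated starts and a dark bar for the gene. Broad H3K4me3 without Suz12 is seen at Meg3, Peg3 and Kcnq1ot1, and broad Suz12 at Igf2 and Grb10.

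H3K4me3 peaks were long at Peg3, Peg10, Mest and Kcnq1ot1, paternally expressed genes whose own promoter is known to be a control region methylated in the egg. The Grb10 peak near the inner start, found in Myc-ESCs only, was 2338 bp, longer than at 10.1% of marked genes. Peg3 encodes a zinc-finger protein, and Peg10 is derived from a retrotransposon and needed in placenta. Mest encodes a hydrolase-like protein, and Kcnq1ot1 is a long non-coding RNA that silences neighbouring genes in cis. At Peg3, 1 peak over the first exon and intron measured 5346 bp (score 2588) in LIF-ESCs against 6022 bp (score 2914) in Myc-ESCs, and it covered 80.8% and 92.9% of the window. At Mest, the peak over the inner starts measured 7403 bp in LIF-ESCs compared with 7055 bp in Myc-ESCs, and it was longer than the longest start-site peak of 92.8% and 94.9% of marked genes. At Kcnq1ot1, the peak over the start measured 6456 bp in LIF-ESCs against 5754 bp in Myc-ESCs, longer than at 89.6% and 89.8% of marked genes. These 3 genes thus had long H3K4me3 peaks of similar length in both cultures.

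The Mest and Kcnq1ot1 peaks scored 3100, a value shared by 4006 peaks of the LIF-ESC list and 3185 of the Myc-ESC list, so their order by score cannot be read. At Peg10 the start-site peak measured 4974 bp (score 2262) in LIF-ESCs compared with 4205 bp (score 1941) in Myc-ESCs. That was longer than at 80.6% and 69.4% of marked genes. A second H3K4me3 peak over intron 1 and exon 2 measured 2520 and 2938 bp. The median length of the longest start-site peak was 3381 bp over 16160 marked genes in LIF-ESCs against 3558 bp over 16461 in Myc-ESCs. All 4 genes were above it in both cultures. So was the maternally expressed Meg3, at 3844 and 5222 bp, in Myc-ESCs longer than Peg10. An outer start of Mest, 4544 bp upstream of the inner one, had a separate and weaker H3K4me3 peak with scores of 155 in LIF-ESCs compared with 153 in Myc-ESCs. In LIF-ESCs 3 more H3K4me3 peaks lay over the Kcnq1ot1 body, with scores of 85.0, 111 and 160, and the nearest was 5921 bp from the start. Myc-ESCs had none there.

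**Figure D3:**
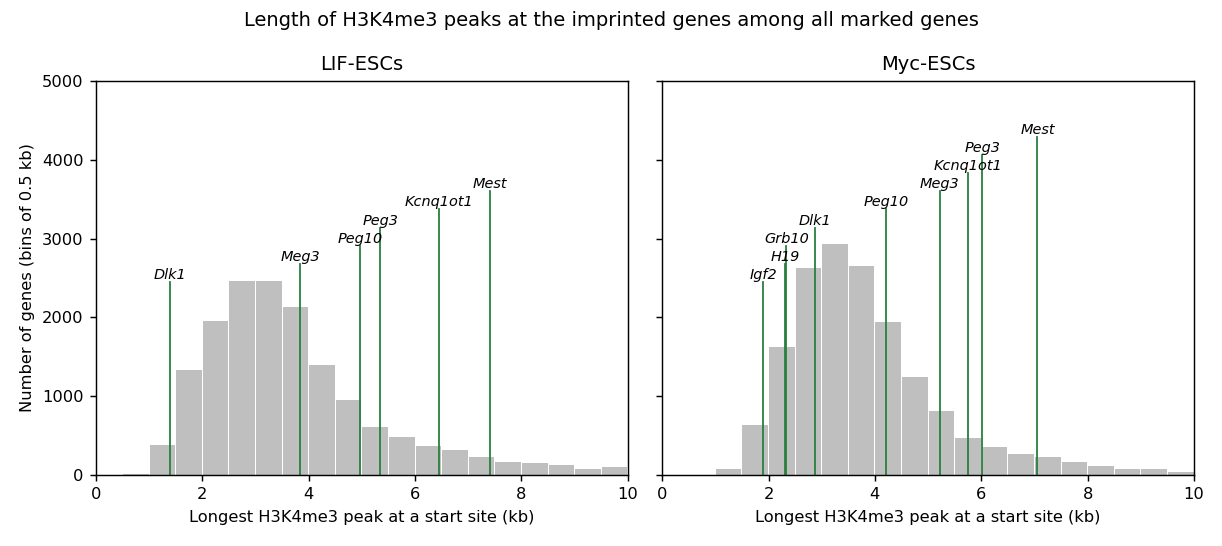
Number of genes (y axis, bins of 0.5 kb) by the length in kb of their longest H3K4me3 peak at a start site (x axis), with a line for each imprinted gene that had one; line heights only separate the names. Mest, Kcnq1ot1, Peg3, Peg10 and Meg3 stood right of the median of 3381 bp (LIF-ESCs) and 3558 bp (Myc-ESCs), and Dlk1, Igf2, H19 and Grb10 left of it.

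Of these control-region promoters, those of Peg10 and Mest had Suz12 in their windows, beside or inside the H3K4me3 peaks. It covered 11.8% of the Peg10 window in LIF-ESCs against 33.9% in Myc-ESCs, and 27.8% and 7.64% of the Mest windows. At Peg10, Suz12 in LIF-ESCs formed 2 peaks of 589 bp in all (highest score 106) in intron 1, and in Myc-ESCs 4 peaks that covered 1696 bp of the window, of which 1 of 1204 bp (score 759) lay over the start. H3K27me3 had no Peg10 peak in LIF-ESCs but 1 of 127 bp (score 58.6) in Myc-ESCs, 1912 bp upstream, on the Sgce side. That peak was the near end of a stretch of 8 Myc-ESC peaks over 4704 bp (gaps of up to 1000 bp joined, highest score 204), of which the others lay outside the window and are given after their values were seen. In LIF-ESCs the nearest H3K27me3 peaks upstream were 2, at 10295 and 10425 bp. Suz12 thus covered more of the Peg10 window in Myc-ESCs.

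At Mest the order was the other way: Suz12 formed 8 peaks of 2654 bp in all (highest score 404) in LIF-ESCs compared with 3 peaks of 729 bp (highest score 128) in Myc-ESCs. All of them lay between the outer start and the inner pair, in the first exon or intron of the outer transcript. H3K27me3 had no Mest peak in LIF-ESCs but 1 of 129 bp (score 51.9) in Myc-ESCs, between the same starts. No peak of H3K27me3 or Suz12 lay at the starts of Peg3 or Kcnq1ot1 in either culture. The nearest Suz12 peak to Peg3 was 346652 bp away in LIF-ESCs against 346862 bp in Myc-ESCs, and 2 weak H3K27me3 peaks (scores 53.1 and 54.5) lay over Kcnq1ot1 in Myc-ESCs, the nearer 77047 bp from its start.

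Grb10, which encodes an adaptor protein that restrains insulin and IGF receptor signalling, was the member with the most bases under Suz12 and H3K27me3 peaks in both cultures. It is known to be read from an outer promoter on the maternal copy in most tissues and from inner promoters on the paternal copy in neurons. In its start windows, 10002 bp in all, Suz12 covered 7367 bp in LIF-ESCs compared with 8656 bp in Myc-ESCs, and H3K27me3 covered 1384 bp in LIF-ESCs against 4751 bp in Myc-ESCs. Suz12 had peaks at both starts in both cultures, with highest scores of 2180 in LIF-ESCs compared with 3100 in Myc-ESCs. With gaps of up to 1000 bp joined, the main Suz12 stretch spanned 13617 bp (10 peaks) in LIF-ESCs against 19806 bp (16 peaks) in Myc-ESCs. In LIF-ESCs further stretches of 3038 bp and 821 bp lay downstream of it, kept apart by gaps slightly above that limit. With these, LIF-ESC Suz12 reached over chr11:12020982-12040764, beside chr11:12020731-12040536 for the Myc-ESC stretch. The difference in span thus rests on the joining limit. The main stretch held both starts in each culture.

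H3K27me3 lay in short pieces, some within that stretch and others outside it, in LIF-ESCs as far as 41190 bp downstream of the inner start. In LIF-ESCs there were 12 peaks at the start windows or over the body, the highest with a score of 140, and in Myc-ESCs 37, the highest with a score of 420. Over the body the peaks held 2276 bp in LIF-ESCs compared with 8105 bp in Myc-ESCs, within a list that was itself the longer in Myc-ESCs. The inner start was inside an H3K27me3 peak in Myc-ESCs and 4 bp from one in LIF-ESCs.

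The outer Grb10 promoter printed above, with its 45 CG dinucleotides, lay in a gap between Suz12 peaks. Of its 300 bases 27 were inside a Suz12 peak in LIF-ESCs against 92 in Myc-ESCs, and none was inside an H3K4me3 or H3K27me3 peak. Its CpG content was the highest of the 14 promoters, at an observed over expected ratio of 0.973 where the median of all promoters was 0.384, and it had no H3K4me3 peak within 2500 bp in either culture. The inner promoter, at 0.446, lay wholly in Suz12 peaks in both cultures, with 162 bases in H3K27me3 peaks in LIF-ESCs compared with 268 in Myc-ESCs.

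H3K4me3 at Grb10 was seen in Myc-ESCs only, as 1 peak of 2338 bp (score 569) at chr11:12025124-12027461, in intron 1 and 510 bp downstream of the inner start. No LIF-ESC H3K4me3 peak was nearer than 91463 bp. In Myc-ESCs 507 of 9577 H3K27me3 bases (5.29%) and 1838 of 17342 Suz12 bases (10.6%) at Grb10 were also inside the H3K4me3 peak. Over the whole Myc-ESC lists these shares were 28.7% for H3K27me3 and 69.3% for Suz12. Seen from the H3K4me3 peak, 507 of its 2338 bases were under H3K27me3 peaks and 1838 under Suz12 peaks, so it lay mostly in a gap of H3K27me3 but not of Suz12.

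**Figure D4:**
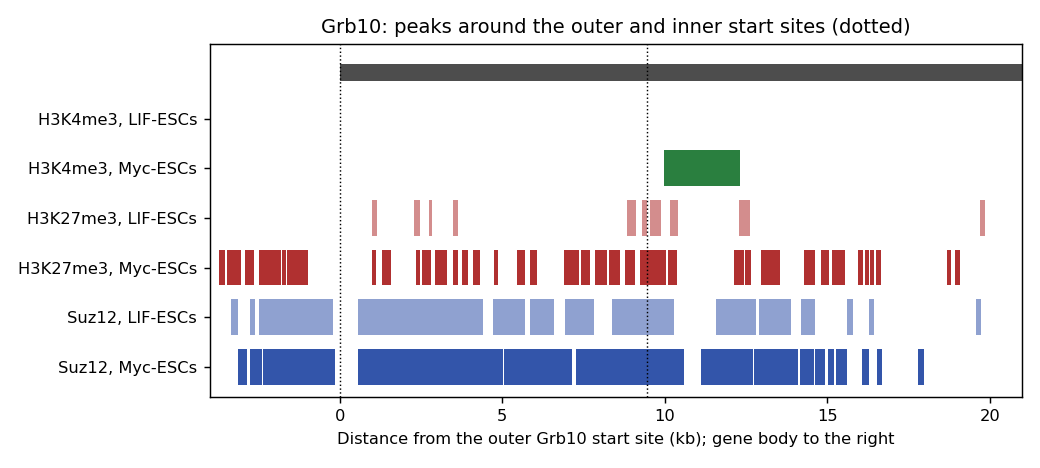
Peaks of the 6 lists (rows; pale for LIF-ESCs, dark for Myc-ESCs) by distance in kb from the outer Grb10 start site, with dotted lines at the outer and inner starts and the gene as a dark bar. The Myc-ESC H3K4me3 peak of 2338 bp sits downstream of the inner start, where H3K27me3 peaks leave a gap that Suz12 peaks partly fill, and the outer start sits in a gap between Suz12 peaks in both cultures.

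At the Igf2 and H19 pair, the growth factor gene carried broad Suz12 peaks in both cultures, and the non-coding RNA a pair of short ones in LIF-ESCs alone. Igf2 encodes insulin-like growth factor 2 and is paternally expressed, and H19 is maternally expressed. The control region upstream of H19 is methylated on the paternal copy, and on the unmethylated maternal copy it binds the insulator protein CTCF, which keeps Igf2 from the shared enhancers beyond H19.

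Igf2 had Suz12 over its starts 2 and 3 in both cultures. The main Suz12 peak, over start 2, measured 4177 bp in LIF-ESCs against 5104 bp in Myc-ESCs with a score of 3100 in each, and a second, over start 3, measured 584 bp (score 294) and 684 bp (score 318). Within the 13777 bp of its windows Suz12 covered 4925 bp in LIF-ESCs compared with 5543 bp in Myc-ESCs. The Igf2 promoters at starts 2 and 3 were wholly inside these peaks in both cultures, and the outermost and innermost had no base in a Suz12 peak. Suz12 cover was thus close between cultures and, among the 4 promoters, confined to the middle pair.

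H3K27me3 at Igf2 was larger in the Myc-ESC list. In LIF-ESCs it was 1 peak of 402 bp (score 153) in intron 1 of the longest transcript, 1221 bp upstream of start 2, and in Myc-ESCs the main peak measured 1511 bp (score 926) and began 183 bp upstream of that start. It stayed in the list of the 3120 highest-scoring Myc-ESC peaks. H3K4me3 at Igf2 was found in Myc-ESCs only, as 1 peak of 1903 bp (score 96.1) at chr7:142657709-142659611 over start 3. All 684 bases of the second Suz12 peak lay inside it, which made 11.2% of the Suz12 bases of the gene. Igf2os, the antisense transcript whose start lies between starts 2 and 3 of Igf2, had the same H3K4me3 and Suz12 states at its own start and cannot be told apart from Igf2 there.

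H19 had no H3K4me3 in LIF-ESCs, the nearest peak being 43257 bp away, and 2 peaks in Myc-ESCs. The first, at chr7:142576663-142578977 (2315 bp, score 150), lay over the start and the first exons. The second, at chr7:142579781-142581900 (2120 bp, score 155), began 1635 bp upstream and reached into the control region. The 2 peaks covered 63.6% of the window. No H3K27me3 peak lay at H19 in either list.

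RefSeq annotates the H19 control region at chr7:142580248-142582833 (2586 bp, beginning 2102 bp upstream of the start), with 4 CTCF sites. They are printed because the Myc-ESC H3K4me3 peak ended among them. Each is on the minus strand, 5′ to 3′, from the GRCm38 genome, with the letters GGNGGCAG, part of the CTCF motif, in capitals.
m4, chr7:142580301-142580347: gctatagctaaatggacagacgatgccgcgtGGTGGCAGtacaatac
m3, chr7:142580756-142580803: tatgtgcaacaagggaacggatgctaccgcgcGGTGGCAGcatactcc
m2, chr7:142581782-142581826: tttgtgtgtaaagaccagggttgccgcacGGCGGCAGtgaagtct
m1, chr7:142582026-142582073: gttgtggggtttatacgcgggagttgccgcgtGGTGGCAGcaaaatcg
Each site held the letters once and 3 to 5 CG dinucleotides, and 3 of the 4, all but m3, also held TGCCGC, a motif described below. The whole region held the letters 5 times on both strands.

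In Myc-ESCs H3K4me3 covered 1653 bp (63.9%) of the control region, with sites m4, m3 and m2 inside the peak and m1 outside it. In LIF-ESCs no H3K4me3 peak touched the region. Suz12 in LIF-ESCs formed 2 short peaks at its near edge, of 192 bp (score 56.1) and 201 bp (score 60.6), which covered 215 bp of it. Neither peak touched a CTCF site. In Myc-ESCs there was no Suz12 peak nearer to H19 than 39971 bp. H3K27me3 peaks were absent from the control region in both cultures.

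**Figure D5:**
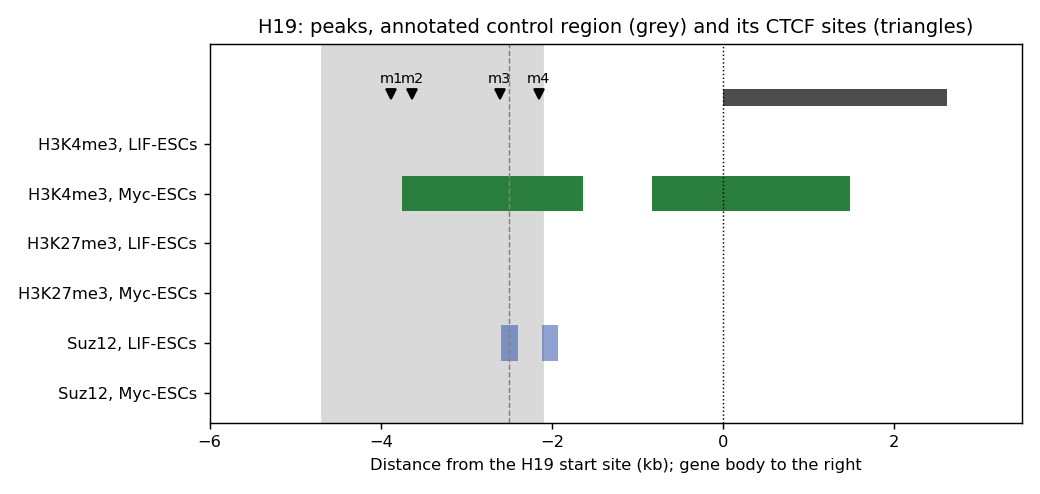
Peaks of the 6 lists (rows) by distance in kb from the H19 start site (dotted), with the gene as a dark bar, the annotated control region in grey, its 4 CTCF sites as triangles and the edge of the 2500 bp window dashed. The only H3K4me3 peaks are the 2 of Myc-ESCs, and the farther one holds sites m4, m3 and m2.

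At Dlk1 and Meg3 the pair divided in both cultures, with Suz12 at the protein-coding gene and none at the non-coding RNA. Dlk1, paternally expressed, encodes a transmembrane protein related to Notch ligands, and Meg3, maternally expressed, is a long non-coding RNA. Their shared control region is known to lie between them, and the annotation used gives no coordinates for it.

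Meg3 had H3K4me3 in both cultures and no other mark. The peak over its first start measured 3844 bp in LIF-ESCs against 5222 bp in Myc-ESCs, each with a score of 3100, longer than the longest start-site peak of 62.6% and 85.8% of marked genes. In LIF-ESCs a second peak of 1322 bp (score 83.1) followed in the body. The windows were covered to 54.9% and 55.5%. The inner Meg3 start had no base of its 300-base promoter in a peak of any list.

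A further H3K4me3 peak lay upstream of Meg3, outside the windows and bodies of the rule, and is named here after its values were seen. It measured 8508 bp (score 3195) at chr12:109523645-109532152 in LIF-ESCs compared with 6575 bp (score 2409) at chr12:109524996-109531570 in Myc-ESCs, and ended 8844 and 9426 bp short of the Meg3 start. Between the end of Dlk1 and the Meg3 window it was the only H3K4me3 peak in either culture. No Suz12 peak lay in that stretch, and H3K27me3 had none in LIF-ESCs against 2 in Myc-ESCs.

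The Dlk1 Suz12 peaks were of low to middle score in LIF-ESCs, and in Myc-ESCs 1 scored above 76.0% of the list. Dlk1 had H3K4me3 peaks in the lower part of their lists by score, partly over the same bases as Suz12. Its start-site H3K4me3 peak measured 1336 bp (score 109) in LIF-ESCs compared with 2879 bp (score 222) in Myc-ESCs, and its longest peak (1396 bp, upstream, in LIF-ESCs) was longer than those of 1.66% of marked genes in LIF-ESCs, against 25.6% for Myc-ESCs. A second H3K4me3 peak over the last exon had scores of 69.0 in LIF-ESCs and 98.8 in Myc-ESCs. Suz12 formed 4 window peaks of 927 bp in all (highest score 107) in LIF-ESCs against 2 of 863 bp (highest score 265) in Myc-ESCs. Of its Suz12 bases at window and body, 56.1% in LIF-ESCs compared with 100% in Myc-ESCs were also in H3K4me3 peaks, beside 59.2% and 69.3% over the whole lists. Dlk1 had no H3K27me3 in either culture.

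The sharing of bases between H3K4me3 and Suz12 divided the 5 genes that had Suz12 in both cultures. At Peg10 100% of the Suz12 bases in LIF-ESCs and 85.4% in Myc-ESCs were in H3K4me3 peaks, and at Mest 45.3% and 100%. At Igf2 the shares were 0% and 11.2%, and at Grb10 0% and 10.6%, beside 59.2% and 69.3% over the whole lists. The 0% of Igf2 and Grb10 was fixed by their having no H3K4me3 peak in LIF-ESCs. These were the genes with H3K27me3 above a score of 100 in their windows or bodies. In Myc-ESCs only a small part of their Suz12 bases was thus under H3K4me3 peaks. Seen from the shorter H3K4me3 peaks, 1838 of 2338 bases at Grb10 and 684 of 1903 at Igf2 were under Suz12 peaks.

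Short motifs were counted in the reference sequence as a description of the start sites. TGCCGC, the core of the motif of Zfp57, a zinc-finger protein that keeps methylation at imprinting control regions, was searched on both strands and was in 11.6% of all 300-base promoters. Of the 14 member promoters 5 held it: the second Igf2, the first Meg3, both inner Mest promoters, which overlap, and the outer Grb10. In the 5001-base windows it was in 50.3% of all windows. The inner Mest windows held it 12 times, a number reached by 5 of 32851 windows with both Mest windows among them, and the Peg3 window 8 times, reached by 57 windows. The outer and inner Grb10 windows held it 5 and 4 times, Kcnq1ot1 3 times, and the H19 control region 5 times.

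AANATGGC, the core of the YY1 motif, was in none of the 14 promoters and in 6.05% of all promoters. In windows it was in 60.3%, and the Peg3 window held it 9 times, a number that 5 windows reached. GGNGGCAG was in 12.6% of promoters and in 80.4% of windows. The Igf2 promoter at start 3 and the outer Grb10 promoter held it, and the windows of the first Igf2 start and the first Meg3 start held it 9 and 7 times, reached by 0.323% and 1.59% of windows. CACGTG, the E-box bound by Myc, was in 7.15% of all promoters and in none of the 14, and in 48.9% of windows. Of the Grb10 windows the outer held it once and the inner, beside the Myc-ESC H3K4me3 peak, did not hold it. The windows of Igf2 starts 1 and 4 held it once each, and those of starts 2 and 3 did not. The Myc-ESC H3K4me3 peak of Igf2 lay wholly within the windows of starts 3 and 4. The inner Meg3 window and the outer Mest window also held it once each. Any link between the E-box and the peaks was not tested. The windows of H19, Peg10 and the inner Dlk1 start were not searched.

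By the percent of the window covered in the 6 lists, some genes outside the family had a like pattern, measured as the summed difference in percentage points. Nearest to Grb10 were Hoxa6 at 29.9, Dlx6os1 at 36.7 and Hottip at 38.2, and nearest to Igf2 were Mir124-2hg at 25.5, Gm5563 at 33.1 and Dcc at 33.2. H19 was nearest to Maml2 at 1.75, and Peg10 to Sgce at 4.08, with which it shares its window. The nearest to Dlk1 was Sctr at 10.8, and the nearest to Mest was Fign at 12.1.

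Of 53 other genes listed as imprinted or lying in imprinted clusters, 51 had a curated transcript. H3K4me3 was at 43 in LIF-ESCs against 44 in Myc-ESCs, beside 62.7% and 63.9% of all genes. Suz12 was at 19 and 22, beside 12.2% and 14.7%, and H3K27me3 at 8 and 18, beside 3.84% and 10.8%. Of the 43 without H3K27me3 in LIF-ESCs, 11 had it in Myc-ESCs, where 8.00% of all such genes did. They were Igf2os, Sgce, Calcr, Kcnq1, Ndn, Magel2, Mkrn3, Peg12, Igf2r, Rasgrf1 and Nap1l5. Phlda2 had it in LIF-ESCs only, 1 of the 8 marked there, where 19.2% of all marked genes lost it. Igf2os and Sgce share windows with Igf2 and Peg10, described above. With lists of equal length, H3K27me3 was at 8 of these genes in each culture, beside 3.84% (LIF) and 3.56% (Myc) of all genes. At a score limit of 100 it was at 1 with LIF compared with 8 with Myc, beside 0.462% and 3.76% of all genes. H3K4me3 was gained by Igf2os and Kcnk9, 2 of the 8 without it in LIF-ESCs, where 6.35% of all such genes gained it. It was lost by Slc22a18, 1 of 43 marked, where 1.91% of all marked genes lost it. Suz12 was gained by Mkrn3, Airn and Nnat, 3 of the 32 without it, where 4.36% of all such genes gained it. Ndn, Magel2, Mkrn3 and Peg12 are neighbours in the cluster of the Prader-Willi region. All of 15 genes that establish, keep or erase imprints, such as Zfp57, Trim28, Dnmt1 and Dppa3, had H3K4me3 in both cultures, beside the 62.7% and 63.9% of all genes. Suz12 and H3K27me3 were at 1 of the 15 in each culture, Dppa3, named here after its values were seen, and no state differed between cultures.

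All 6 ESC markers had H3K4me3 at a start site in both cultures, where 62.7% (LIF) and 63.9% (Myc) of all genes had it. Suz12 was at 1 of these 6 markers, Esrrb, in both cultures, with H3K27me3 there in Myc-ESCs. Of 11 markers of endoderm, mesoderm, trophoblast and fibroblasts, H3K4me3 was at 10 in LIF-ESCs against 11 in Myc-ESCs, Suz12 at 8 and 10, and H3K27me3 at 4 and 7. H3K4me3 alone thus did not set the ESC markers apart from those of other cell types. The markers at which a mark was found in Myc-ESCs only included the fibroblast genes Col1a2 (H3K4me3 and Suz12) and Thy1 (Suz12). Their part in the states of the imprinted genes was not tested.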

How the data were processed

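ChIP-seq of H3K4me3, H3K27me3 and Suz12 in LIF-ESCs and Myc-ESCs gave 6 peak lists, 1 per antibody and culture, each standing for 2 libraries. How the libraries were joined, and the depth, are not given in the sources used here, so no interval or replicate error could be given. According to the methods and the submitters' processing notes, the authors aligned unique reads with Bowtie2 2.2.3 to GRCm38 and called peaks with MACS 1.4.2 at default settings; whether input served as the control is not given in the sources used here. The deposited score of each peak is on the caller's scale of scaled −log10(p), is at least 50 and grows with depth, so it served for ranking and limits inside a list alone. Peak starts were moved from 0-based to 1-based.

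Genes were 45302 curated RefSeq transcripts (NM and NR, without pseudogenes) of GRCm38.p6, or 25755 symbols. A gene was marked when any peak base fell within 2500 bp of a start site, or in the body. The text names all 9 members, the genes of the other lists whose state differed between cultures, genes that share a member's window, and for members with peaks of 2 or more antibodies up to 3 genes most like them. The members and lists were chosen with earlier results of these data known. No test was made. The alternatives were a score limit of 100, lists of equal length, windows of 1000 and 5000 bp, 0.5 of the peak inside, GENCODE vM21 transcripts and, for motifs, the whole window. The overlap code was tested on simulated data, and 0 of 3000 comparisons with a double loop differed. Python 3.11.15, numpy 2.4.6, pysam 0.24.0 and matplotlib 3.10.9 were used.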

Additional observations from a re-analysis of the deposited data

How the results depend on the processing

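No paired analysis was possible because the result comes from no test: each antibody and culture has 1 list for 2 libraries, and leaving out a library could not be done. Of 30 counts of genes, all stayed within 1.5 times their reported value with 0.5 of each peak inside and with GENCODE transcripts (windows of 5000 bp: 24 of 24). At a score of at least 100, 22 of 30 did, with lists of equal length 25 of 30, and with windows of 1000 bp 19 of 24. The counts of members with H3K4me3 and Suz12 moved by more only in 1 respect: at a score of at least 100, 0 members had Suz12 in LIF-ESCs only. With windows of 1000 bp that count stayed at 1, but the gene was Mest in place of H19. Members with H3K27me3 at a start site in Myc-ESCs were 2 at a score of at least 100, with lists of equal length and with windows of 1000 bp, members with it over the body in Myc-ESCs were 2 in the first pair of settings, members with it in LIF-ESCs were 1 with windows of 1000 bp, and members with it in Myc-ESCs only were 0, 0 and 1 in these settings. The last was Igf2, whose LIF-ESC peak fell outside the shorter window, and not Mest or Peg10. Other imprinted genes with H3K27me3 at a score of at least 100 were 1 in LIF-ESCs but 8 in Myc-ESCs. Over all genes the shares at that score were 0.462% and 3.76%. Other imprinted genes with H3K27me3 were 8 in each culture with lists of equal length, and 4 in LIF-ESCs with windows of 1000 bp. Imprint maintenance genes with H3K27me3 were 0 in both cultures at a score of at least 100 and 0 in Myc-ESCs with lists of equal length, and those with Suz12 in Myc-ESCs were 0 with windows of 1000 bp. Searched over the whole window in place of the promoter, member start sites with a motif rose in number from 5 to 12 of 14 for TGCCGC, from 2 to 11 for GGNGGCAG, from 0 to 6 for AANATGGC and from 0 to 5 for CACGTG, since more bases were searched. Low-scoring peaks, on which the H3K27me3 states of Peg10 and Mest and the Suz12 state of H19 rest, depend most on depth, which is unknown.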
